A study of Mus musculus with 2 samples.

Results

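The transcripts of the mitochondrial genome were examined in RNA-seq libraries of sorted CD4- mature thymocytes of MHC-II0:CD8ab Tg mice. They comprise every listed gene whose symbol starts with mt-, which gave 37 of 48321 genes, made up of 13 mRNAs, 2 rRNAs and 22 tRNAs. Both libraries (n = 2) belong to a single group of the C57Bl/6 background. In these mice the I-Ab chain of MHC class II is missing, the endogenous Cd8 locus is disrupted on both chromosomes, and Cre driven by the Cd4 promoter switches on CD8α and CD8β cDNAs placed in the Rosa26 locus. The age of the mice and the number of mice behind each replicate are not given in the sources used here. The library titles name cells without CD4 and CD8, whereas the cell type field names CD8+ cells. No wild-type library was analysed here, and no effect of the genotype was tested.

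The mitochondrial genome is a small circular DNA that is transcribed from both strands into long precursors. Most genes lie on the heavy-strand precursor, whereas the light-strand precursor holds the mRNA for the complex I subunit ND6 and some tRNAs. The tRNAs stand between the rRNAs and mRNAs, and their excision releases the other transcripts, most of which then receive short poly(A) tails. The proteins are core subunits of complexes I, III, IV and V of oxidative phosphorylation, which are completed by subunits encoded in the nucleus.

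After poly(A) selection, single-end reads of 50 bases were obtained, and only reads with a single place in the genome were counted. The total on genes was 16732644 counts in replicate 1 and 16245849 in replicate 2, and the limit that a count of 0 allows, set at 3 counts, was 0.179 and 0.185 CPM, the counts per 1000000 counts on genes. The T-cell markers Cd3e, Cd3d, Trac, Cd8a and Cd8b1 had 165 to 780 CPM on average, although reads on Cd8a and Cd8b1 may come from the transgenes. Cd4 was at 1.19 ± 0.668 CPM (SD, n = 2), and among the 10 markers of B, myeloid, erythroid and thymic epithelial cells the highest was Csf1r with 10.7 CPM, with Cd14, Hbb-bs and Hba-a1 at 0 counts in both libraries. The libraries stood apart in sex-linked genes, chosen after their values were seen. Xist had 2.03 CPM in replicate 1 and 1555 CPM in replicate 2, and Ddx3y had 146 CPM and 0 counts. The libraries thus did not come from the same mouse, and the spread between them holds differences between mice as well as technical ones.

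Near-identical copies of the mitochondrial sequence were found among annotated genes of the nuclear genome, and reads that fit both places were not counted. On chromosome 1, 7 unprocessed pseudogenes in GENCODE M21 (Gm28439, Gm10222, Gm28438, Gm28437, Gm10925, Gm28661 and Gm29216) lie side by side on the minus strand of GRCm38 at chr1:24611535-24616197. They hold, in the same order, the sequences of mt-Nd4, mt-Nd4l, mt-Nd3, mt-Co3, mt-Atp6, mt-Co2 and the end of mt-Co1, with 7 base differences in the 4145 bases that the annotated copies cover. The first 60 bases of mt-Co3 and of its copy Gm28437, whose 783 bases are all identical to the gene, show such a stretch, where a read has more than 1 place. The start of mt-Nd3 with its copy Gm28438, and positions 1054 to 1113 of mt-Co1 with its copy Gm29216, show the differences there are, with differing bases in capitals.

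mt-Co3 (chrM:8607-8666, plus strand): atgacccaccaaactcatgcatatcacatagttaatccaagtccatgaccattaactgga
Gm28437 (chr1:24613912-24613971, minus strand): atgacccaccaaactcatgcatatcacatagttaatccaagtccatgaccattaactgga
mt-Nd3 (chrM:9459-9518, plus strand): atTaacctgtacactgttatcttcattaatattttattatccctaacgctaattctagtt
Gm28438 (chr1:24613060-24613119, minus strand): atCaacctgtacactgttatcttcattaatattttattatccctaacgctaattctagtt
mt-Co1 (chrM:6381-6440, plus strand): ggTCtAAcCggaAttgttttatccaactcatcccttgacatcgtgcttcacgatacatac
Gm29216 (chr1:24616138-24616197, minus strand): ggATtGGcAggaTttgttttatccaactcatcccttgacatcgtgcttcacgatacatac

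Counted from the first base of the mitochondrial gene, the difference in mt-Nd3 is T3C, and those in mt-Co1 are T1056A, C1057T, A1059G, A1060G, C1062A and A1066T, with the base of the mitochondrial gene first. Among the annotated genes outside the mitochondrial genome of which at least 50% of the 50-base windows occur in it, none had more than 4 counts in a library. The ones with the most counts were Gm28439 (2 and 3 in replicates 1 and 2), Gm10925 (4 and 0), Gm29216 (0 and 3), Gm10222 (3 and 0), and Gm28437 (0 and 2) level with Gm28661 (2 and 0).

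Of the 13 mRNAs, 8 carried nearly all mRNA counts and 5 were at or close to 0. The 5 were the complex IV subunits mt-Co2 (1 count in replicate 1 and 2 in replicate 2) and mt-Co3 (5 and 0), the ATP synthase subunit mt-Atp6 (5 and 4), and the complex I subunits mt-Nd3 (5 in each) and mt-Nd4l (0 in each). In these 5 genes, from 98.0% (mt-Nd3) to 100% (mt-Co2 and mt-Nd4l) of the windows of 50 bases, the length of a read, also occur in nuclear transcripts. In the other 8 mRNAs this share was 62.2% for mt-Nd4, 51.1% for mt-Co1, 8.19% for mt-Nd2, 7.61% for mt-Nd5, and 0% for mt-Nd1, mt-Cytb, mt-Nd6 and mt-Atp8. Together the 5 genes had 16 counts in replicate 1 and 11 in replicate 2, against 223270 and 186310 for the other 8. The low values thus belong to genes of which almost no read has a single place, and they say nothing about how much of these mRNAs the cells contain. For mt-Atp8 the share is not a full measure, since the sequence of the chromosome 1 stretch that faces it, which lies between the annotated copies, was not in the files used here.

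**Figure D1:**
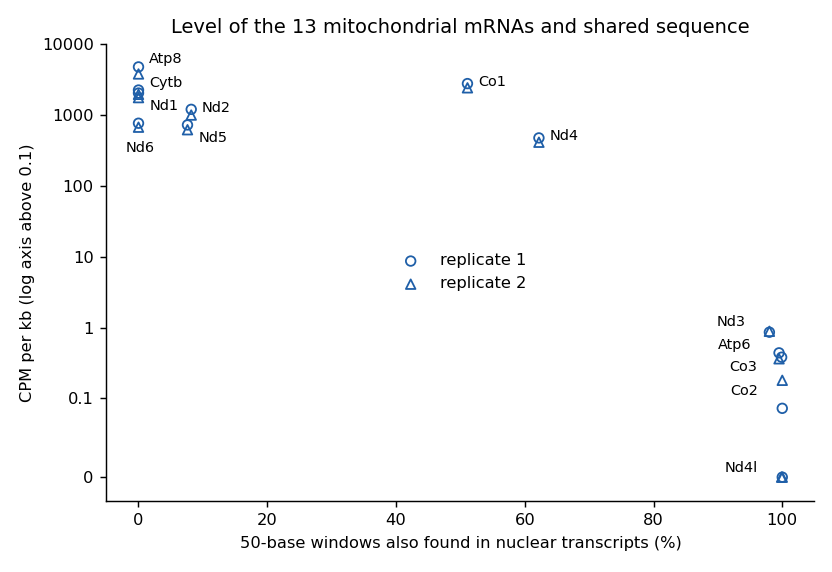
Level of the 13 mitochondrial mRNAs in CPM per kb of gene (vertical axis, logarithmic above 0.1) against the percent of their 50-base windows that also occur in nuclear transcripts. Circles are replicate 1 and triangles replicate 2, and the 5 genes at 98.0% or more lie under 1 CPM per kb while the other 8 lie at 411 or above, with mt-Co3 in replicate 2 and mt-Nd4l in both at 0.

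Counts on the 37 genes added up to 270134 in replicate 1 and 220081 in replicate 2. This was 1.614% of the counts on genes in replicate 1 (Wilson 95% interval 1.608 to 1.620%) and 1.355% in replicate 2 (1.349 to 1.360%). These intervals, like the others below, allow for the counting error of reads alone and not for differences between mice. They may be too narrow even for that, because without molecular identifiers several reads can stem from a single molecule. The share leaves out whatever the 5 uncountable mRNAs would have added. In bulk cells, fewer mitochondria per cell and less RNA per mitochondrion cannot be told apart, nor can fewer cells of a type and less RNA per cell. By class, the mRNAs took 83.7 ± 1.42% of the mitochondrial counts (SD, n = 2), the rRNAs 15.5 ± 1.43%, and the tRNAs 0.799 ± 0.0123%. These are shares of reads counted after poly(A) selection and without the 5 uncountable mRNAs, and not shares of the RNA in the cells.

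**Figure D2:**
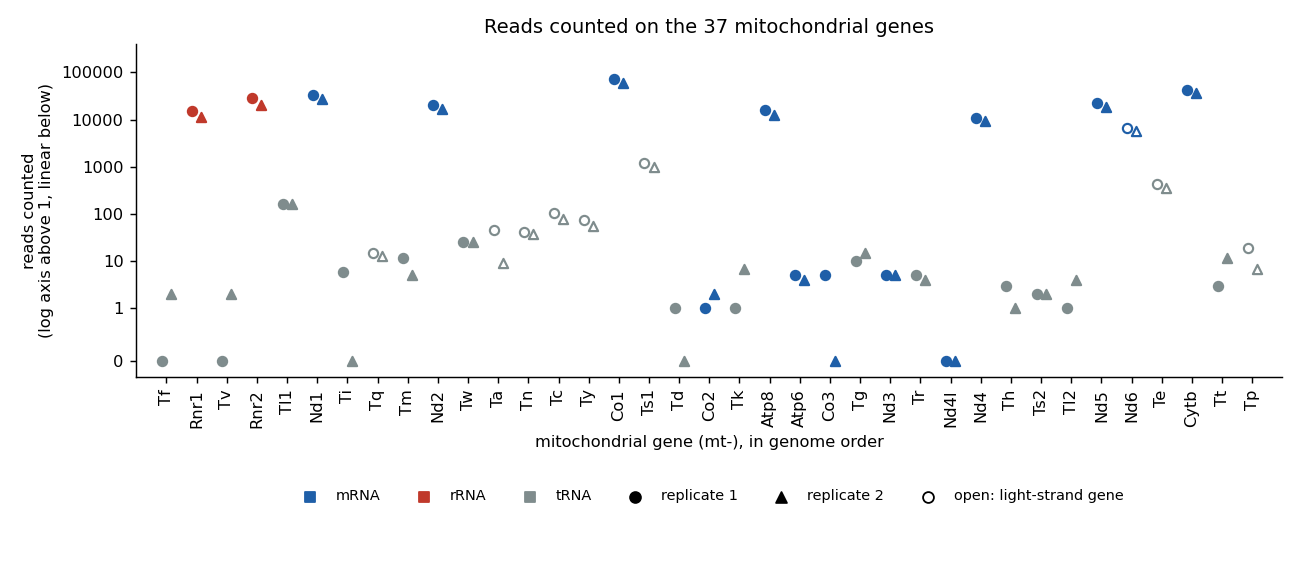
Reads counted on each of the 37 mitochondrial genes in genome order (vertical axis logarithmic above 1), with circles for replicate 1, triangles for replicate 2, colours for the class and open symbols for light-strand genes. The 8 countable mRNAs and both rRNAs lie at 5651 counts or above, mt-Ts1 and mt-Te are the highest tRNAs, and the 5 mRNAs with nuclear copies hold 0 to 5 counts.

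The levels of the mRNAs were then compared per length. mt-Co1, which encodes the catalytic subunit of complex IV, had 71408 and 60442 counts in replicates 1 and 2. At 3994 ± 387 CPM (SD, n = 2) it ranked 7 of all listed genes. mt-Cytb, the only mitochondrial gene of complex III, followed with 42855 and 36213 counts, or 2395 ± 235 CPM. Per kb of gene, the highest level was that of mt-Atp8, a short gene for a subunit of ATP synthase (16207 and 12515 counts), with 4748 CPM per kb in replicate 1 and 3776 in replicate 2. mt-Co1 followed with 2762 and 2408 CPM per kb, mt-Cytb with 2239 and 1948, and mt-Nd1, a complex I subunit in the membrane arm (32505 and 27231 counts), with 2030 and 1751. These levels place mt-Atp8 above mt-Co1, mt-Co1 above mt-Cytb and mt-Cytb above mt-Nd1 in both libraries. The values of mt-Cytb and mt-Nd1 overlapped only across libraries, with mt-Cytb in replicate 2 below mt-Nd1 in replicate 1.

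The other complex I mRNAs were lower. mt-Nd2 had 20772 and 16769 counts, which gave 1095 ± 143 CPM per kb (SD, n = 2). mt-Nd5 had 22005 and 18298 counts, or 669 ± 73.2 CPM per kb. mt-Nd4 had 10901 and 9191 counts, or 442 ± 44.0 CPM per kb, the lowest of the 8 countable mRNAs, and neither of its libraries reached those of mt-Nd5.

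Length alone is not the right divisor where part of a gene cannot be counted. Levels were therefore also expressed per 1000 start positions from which a read of 50 bases would touch a single gene on its strand and would have a single place among the sequences used. On this scale the order of the 4 highest mRNAs stayed mt-Atp8 (7694 ± 1240 CPM per 1000 starts, SD, n = 2), mt-Co1 (4818 ± 467), mt-Cytb (2094 ± 205) and mt-Nd1 (1997 ± 208). mt-Nd4, with 503 countable starts, rose to 1210 ± 121, so its place below mt-Nd5 (723 ± 79.0) was not kept. Within each library mt-Nd4 lay below mt-Nd2 (1255 ± 163), and the values of these genes overlapped only across libraries. All 113 countable starts of mt-Atp8 lie in the stretch of the copy that could not be checked, so its value on this scale would be higher if some of them have a second place.

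**Figure D3:**
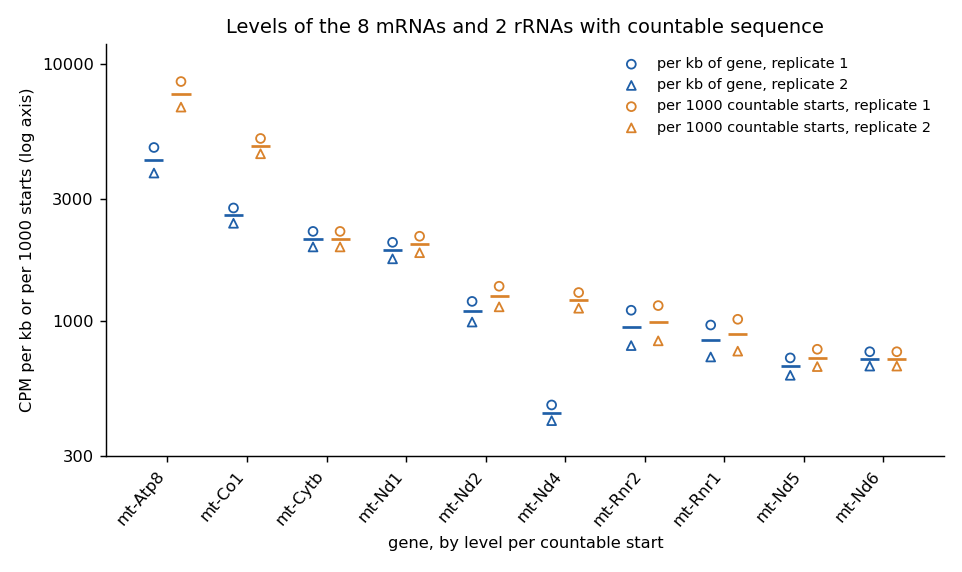
Levels of the 8 mRNAs and 2 rRNAs with countable sequence, on a logarithmic axis, in CPM per kb of gene (blue) and CPM per 1000 countable start positions (orange). Circles are replicate 1, triangles replicate 2 and lines their mean. mt-Nd4 moves from the lowest place per kb to just below mt-Nd2 per countable start.

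mt-Atp8 and mt-Atp6 are translated from a shared mRNA and overlap by 43 bases. The 204 bases of mt-Atp8 are shown for this contrast of a gene with 16207 and 12515 counts and a neighbour on the same mRNA with 5 and 4, with the bases shared with mt-Atp6 in capitals. A read that touches the overlap belongs to both genes, and is left uncounted as ambiguous where reads on several genes are set aside.

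mt-Atp8 (chrM:7766-7969, plus strand): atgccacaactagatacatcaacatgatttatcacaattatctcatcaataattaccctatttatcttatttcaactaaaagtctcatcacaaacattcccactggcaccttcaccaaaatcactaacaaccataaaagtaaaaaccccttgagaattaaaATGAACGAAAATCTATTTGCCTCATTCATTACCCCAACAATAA

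mt-Co3, mt-Nd4 and mt-Cytb end without a complete stop codon in the annotation, with a single T, which polyadenylation completes in mitochondrial mRNAs. Their last 31 bases are given because poly(A) selection acts on this end of the RNA, with the single T in capitals. The level of mt-Cytb was above that of mt-Nd4 on each scale, so the ending they share did not go with 1 level.

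mt-Co3 (chrM:9360-9390, plus strand): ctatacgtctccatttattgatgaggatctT
mt-Nd4 (chrM:11514-11544, plus strand): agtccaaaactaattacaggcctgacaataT
mt-Cytb (chrM:15258-15288, plus strand): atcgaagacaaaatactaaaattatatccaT

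The mitochondrial rRNAs were counted in poly(A) libraries at a level near that of the lower mRNAs. Genes over a nuclear ribosomal RNA repeat were counted too, from 6212 ± 2413 CPM (SD, n = 2) for Gm26917 to 77470 ± 11755 CPM for Gm42418. Whether the counts on the mitochondrial rRNAs come from RNA with a poly(A) tail was not tested. mt-Rnr2, the RNA of the large subunit of the mitochondrial ribosome, had 29243 and 20697 counts, or 1105 and 805 CPM per kb in replicates 1 and 2. mt-Rnr1, the RNA of the small subunit, had 15471 and 11286 counts, or 968 and 727 CPM per kb. Replicate 1 was higher for both. Within each library mt-Rnr2 lay above mt-Rnr1 and below mt-Nd2, and these levels overlapped only across libraries. Within a library the ratio of mt-Rnr2 to mt-Rnr1 per kb was 1.14 and 1.11.

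mt-Nd6, the only mRNA of the light strand, encodes a membrane subunit of complex I. Its 6617 and 5651 counts in replicates 1 and 2 were the fewest of the countable mRNAs and gave 762 and 670 CPM per kb. None of its windows occur in nuclear transcripts. Against the median of the 12 heavy-strand mRNAs, mt-Nd6 was at a ratio of 1.29 ± 0.0193 per kb (SD, n = 2). This median is lowered by the 5 genes that cannot be counted. Against the median of the 7 heavy-strand mRNAs in which under 90% of windows are shared, a comparison chosen after the values were seen, the ratio was 0.379 ± 0.00515, and per countable start it was 0.359 ± 0.00488, so the direction turned. With 2 libraries no exact test over libraries can reach p under 0.05, and none was run.

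Gene by gene, mt-Nd6 was below mt-Co1 with a ratio of 0.277 ± 0.00175 per kb (SD, n = 2), below mt-Cytb at 0.342 ± 0.00256, and below mt-Nd2 at 0.656 ± 0.0261. It was above mt-Nd5 per kb in both libraries, with a ratio of 1.07 ± 0.0202. Per 1000 countable starts that ratio was 0.992 ± 0.0187, at 0.979 in replicate 1 and 1.01 in replicate 2. Against mt-Nd4 the ratio was 1.62 ± 0.0147 per kb and 0.592 ± 0.00537 per 1000 countable starts. By its counts mt-Nd6 was therefore among the lowest countable mRNAs, and it was above mt-Nd5 in both libraries per kb only. These counts can include reads from RNA of the opposite strand, since the library kit does not mark strand.

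The last 60 bases of mt-Nd5 and mt-Nd6 are shown because these neighbours meet end to end on opposite strands, with the 14 bases of their overlap in capitals. The coding strand of mt-Nd6 held 28.1% G and 5.97% C, whereas among the heavy-strand mRNAs G was 5.88% (mt-Atp8) to 16.1% (mt-Co1) and C 22.1% (mt-Nd3) to 30.0% (mt-Nd4l).

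mt-Nd5 (chrM:13506-13565, plus strand): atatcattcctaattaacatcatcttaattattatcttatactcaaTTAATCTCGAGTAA
mt-Nd6 (chrM:13552-13611, minus strand): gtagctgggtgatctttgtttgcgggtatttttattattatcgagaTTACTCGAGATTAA

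The counts of mt-Nd6 rest on how strand was treated. In GENCODE M21, 307 genes of at least 100 exon bases are wholly covered by opposite-strand exons, with no other gene on their strand. Of these, 129 had at least 10 counts, so strand was probably used in the counting. The annotation used in the counting is not given, and it could differ from GENCODE M21 at these genes. The library kit named by the authors does not mark the strand of the RNA. Reads from mt-Nd6 and from RNA of the opposite strand at the same place can thus not be told apart, and the same holds for the light-strand tRNAs and, in reverse, for the heavy-strand genes.

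The tRNAs carry the amino acids for translation in mitochondria and are little longer than a read. Of their counts, 91.1% in replicate 1 and 91.8% in replicate 2 fell on 5 of the 22. mt-Ts1, a tRNA for serine, took the most, with 1181 and 978 counts. This was 55.3% of the tRNA counts in replicate 1 (Wilson 95% interval 53.2 to 57.4%) and 55.0% in replicate 2 (52.7 to 57.3%). mt-Te, the tRNA for glutamic acid that adjoins mt-Nd6, had 423 and 356 counts. mt-Tl1, a tRNA for leucine that follows mt-Rnr2, had 160 and 162 counts. mt-Tc, for cysteine, had 104 and 79 counts, and mt-Ty, for tyrosine, 76 and 56.

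Of these 5, all but mt-Tl1 lie on the light strand. The 8 light-strand tRNAs held 89.3% of the tRNA counts in replicate 1 (Wilson 95% interval 87.9 to 90.5%) and 86.4% in replicate 2 (84.7 to 87.9%). As the library kit does not mark strand, counts on these tRNAs, mt-Ts1 included, can hold reads from heavy-strand RNA at the same places. The 13 heavy-strand tRNAs other than mt-Tl1 had 0 to 26 counts in a library, and 5 of them were at or under 3 counts in both. No tRNA was at 0 in both libraries, and 4 were at 0 in 1 of them. The 17 tRNAs outside the 5 highest had 0 to 45 counts. The 5 highest and mt-Ta, which differed between the libraries, are shown with the anticodon in capitals, placed by the T before it and a stem in which at least 4 of 5 bases pair. At its end mt-Ts1 overlaps the end of mt-Co1 by 3 bases on the opposite strand.

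mt-Ts1 (chrM:6870-6938, minus strand): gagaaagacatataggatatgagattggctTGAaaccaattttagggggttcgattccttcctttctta
mt-Te (chrM:14071-14139, minus strand): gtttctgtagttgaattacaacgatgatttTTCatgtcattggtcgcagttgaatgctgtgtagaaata
mt-Tl1 (chrM:2676-2750, plus strand): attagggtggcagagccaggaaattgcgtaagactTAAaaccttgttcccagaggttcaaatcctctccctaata
mt-Tc (chrM:5192-5257, minus strand): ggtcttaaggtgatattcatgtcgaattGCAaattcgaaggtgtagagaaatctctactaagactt
mt-Ty (chrM:5260-5326, minus strand): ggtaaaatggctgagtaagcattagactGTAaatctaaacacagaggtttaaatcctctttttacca
mt-Ta (chrM:5018-5086, minus strand): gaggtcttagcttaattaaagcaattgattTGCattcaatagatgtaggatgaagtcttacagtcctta

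Per kb, mt-Ts1 stood at 948 ± 106 CPM (SD, n = 2), within the range of the mRNAs and rRNAs. Because a tRNA is so short, reads that reach past its ends weigh more in this value than for longer genes. Countable starts also differed, with 51 to 120 in the light-strand tRNAs and 9 to 71 in the heavy-strand ones, so the share of counts on light-strand tRNAs is not a share per countable start. Per 1000 countable starts mt-Ts1 was at 569 ± 63.8 CPM, below mt-Nd6 at 716 ± 64.9. The heavy-strand mt-Tl1, with 26 starts, was at 376 ± 11.1 and mt-Te, with 69, at 342 ± 34.5, so mt-Te had more counts than mt-Tl1 but not a higher level on this scale. The 115 countable starts of mt-Ts1 also lie opposite a stretch of the copy that could not be checked. The ratio of mt-Ts1 to mt-Co1, whose end it adjoins, was 0.118 ± 0.00182 per 1000 countable starts.

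As a whole, the mitochondrial transcripts were lower in replicate 2 than in replicate 1. Their summed level fell by 0.25 on the log2 scale, from 16144 to 13547 CPM. Of the 24 members tested, 19 were lower in replicate 2, beside 34.5% of all genes tested. The 14 heavy-strand tRNAs together were not lower, with 13.7 CPM in replicate 1 and 14.9 in replicate 2. Among the 11 members with at least 1000 counts over both libraries, the 8 countable mRNAs, both rRNAs and mt-Ts1, the log2 ratio of replicate 2 to replicate 1 ranged from -0.46 to -0.19. The median of all 15949 genes tested was 0.08. The rRNAs differed most in the group, with -0.46 for mt-Rnr2 and -0.41 for mt-Rnr1, and among the mRNAs mt-Atp8 stood at -0.33, mt-Nd2 at -0.27 and mt-Nd6 at -0.19. Among 473 other genes with at least 10000 counts, the middle 95% of log2 ratios lay from -0.26 to 0.27, so the rRNAs, mt-Atp8 and mt-Nd2 fell outside that range and the other mRNAs inside it.

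To find genes that differed between the libraries, an exact binomial test (two-sided) was applied to the counts of each gene, and p-values were adjusted after Benjamini and Hochberg. It compares these libraries and not conditions. At an adjusted p under 0.05 and a difference of at least 2-fold, 1 of the 24 members tested differed, beside 1.52% of all genes tested. It was mt-Ta, the tRNA for alanine, with 45 counts in replicate 1 and 9 in replicate 2. Its log2 ratio was -2.28, with an exact 95% interval of -3.50 to -1.23 (adjusted p = 2.13e-05). It also differed in the exact test of edgeR, run with the variation between replicates fixed at 0.1 (adjusted p = 0.00512), in which 0.376% of genes were called. With no minimum fold, 12 of the 24 members had an adjusted p under 0.05 in the binomial test and were lower in replicate 2, beside 2.82% of all genes tested. Deep counts let the binomial test call small differences, and beside mt-Ta the members called were the 11 with at least 1000 counts. In edgeR's exact test, which allows for variation between replicates, none of these 11 had an adjusted p under 0.05. The lowest of them there was 0.78, for mt-Rnr2.

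**Figure D4:**
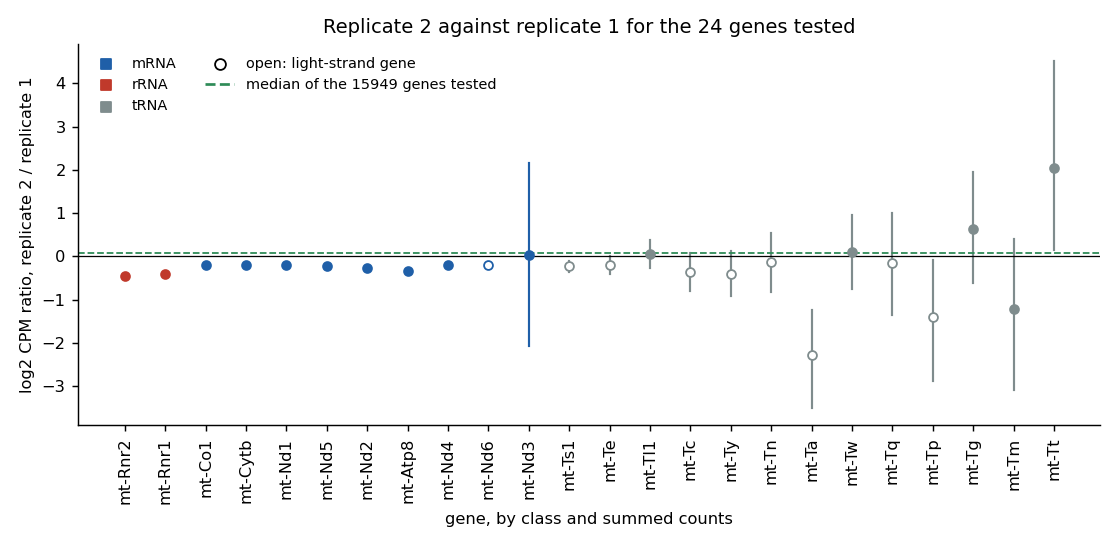
Log2 ratio of CPM in replicate 2 to replicate 1 for the 24 mitochondrial genes with at least 10 counts in all, by class and summed counts, with exact binomial 95% intervals as lines and open circles for light-strand genes. The dashed line is the median of the 15949 genes tested (0.08), and the rRNAs and countable mRNAs lie below 0 while most tRNAs have intervals that cross it.

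Genes over a nuclear ribosomal RNA repeat were also lower in replicate 2. The log2 ratio was -0.31 for Gm42418, -0.36 for Rn18s-rs5, -0.48 for Lars2 and -0.81 for Gm26917. Their part, and that of the difference in sex-linked genes, in the lower mitochondrial level was not tested.

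The nuclear genes that maintain and express the mitochondrial genome were all found. Of 34 genes for replication, transcription, RNA processing and polyadenylation in mitochondria, 34 had at least 1 CPM in both libraries, beside 26.2% of all listed genes. The highest were Polg, the catalytic subunit of the mitochondrial DNA polymerase, with 90.2 ± 6.00 CPM (SD, n = 2), Lrpprc, which stabilises mitochondrial mRNAs, with 87.6 ± 6.93 CPM, and Rexo2, an oligoribonuclease, with 70.9 ± 4.44 CPM. Polrmt, the mitochondrial RNA polymerase, had 761 and 724 counts, or 45.0 ± 0.647 CPM. Tfam, which packages mitochondrial DNA and takes part in starting transcription, had 918 and 956 counts, or 56.9 ± 2.82 CPM. Slirp, the partner of Lrpprc, had 58.9 ± 1.47 CPM. None of the 34 differed by 2-fold or more between the libraries at an adjusted p under 0.05, beside 1.52% of all genes tested. Without a minimum fold, 3 of the 34 had an adjusted p under 0.05 in the binomial test, as did 2596 of the 15949 genes tested. The median log2 ratio of the 34 was 0.07, and 11 of them were lower in replicate 2, as were 34.5% of all genes tested.

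Within each complex the countable mitochondrial mRNAs stood above the nuclear partners reported here per kb. The lowest of the 5 complex I genes, mt-Nd4, was at 442 ± 44.0 CPM per kb, and the highest of the 3 complex I partners reported here, Ndufv1, at 27.5 ± 0.282, a ratio of 16.0 ± 1.76 (SD, n = 2). For complex III, the ratio of mt-Cytb to Uqcrc2 was 43.1 ± 3.95. For complex IV, mt-Co1 to Cox4i1 gave 16.2 ± 2.93, and for ATP synthase mt-Atp8 to Atp5a1 gave 22.6 ± 4.41. All 15 nuclear partners reported here lay below each countable mitochondrial gene of their complex in both libraries. The nuclear lengths are those of all annotated exons of a gene, which lowers its level per kb where the cells use fewer exons. The levels per kb of mt-Nd4 and mt-Co1 are lowered too, since 62.2% and 51.1% of their windows occur in nuclear transcripts. Countable sequence was not assessed for the nuclear partners. None of the 15 differed by 2-fold or more between the libraries at an adjusted p under 0.05, beside 1.52% of all genes tested. Without a minimum fold, 5 of the 15 had an adjusted p under 0.05 in the binomial test, as did 2596 of the 15949 genes tested. Of the 15, 2 were lower in replicate 2, beside 34.5% of all genes tested.

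**Figure D5:**
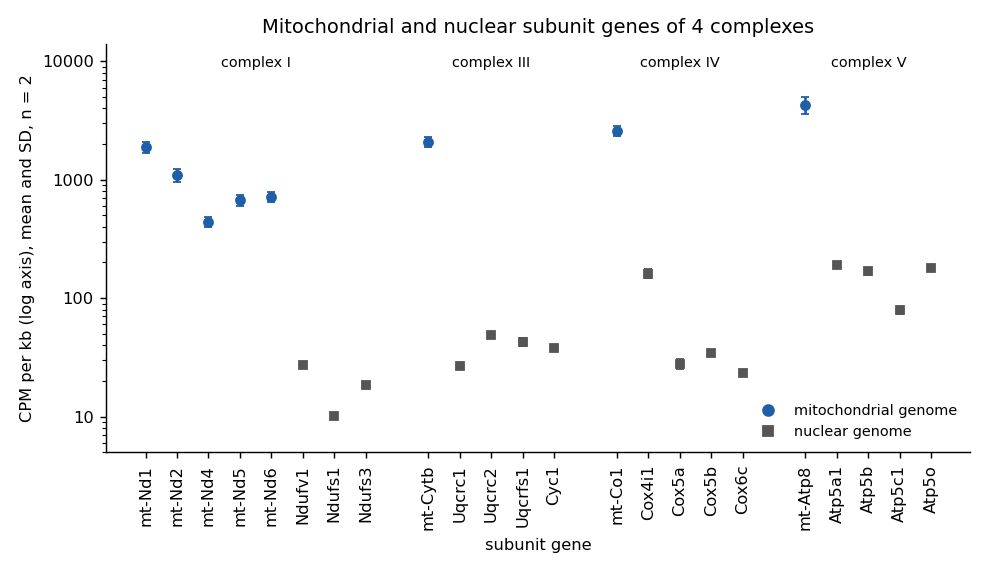
Level in CPM per kb of exon (logarithmic axis, mean and SD of 2 replicates) of the countable mitochondrial mRNAs (blue circles) and of 15 nuclear genes of the same 4 complexes (grey squares). In each complex the mitochondrial genes lie above all the nuclear partners shown, from a ratio of 16.0 for mt-Nd4 over Ndufv1 to 43.1 for mt-Cytb over Uqcrc2.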

How the data were processed

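RNA from sorted cells was extracted with TRIzol and an RNeasy column, poly(A) RNA was selected, and libraries were made with a NEBNext kit and read on an Illumina HiSeq. The authors mapped the reads with TopHat 2.1.1 onto mm10, counted them per gene with HTSeq 0.6.1, and deposited raw counts without normalization. The annotation, counting mode and strand setting are not given in the sources used here. Of the uniquely aligned reads, 55.9% in each library fell on no gene, and 3.52% and 2.92% were ambiguous. Lines for such reads were left out of the totals.

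CPM was computed on the total on genes, with mean and SD over 2 replicates. Symbols were matched to GENCODE M21 of GRCm38 (46394 of 48321), the build of mm10, which gave positions, lengths and the printed sequences. Windows of 50 bases were compared with all annotated transcripts on both strands, since no genome sequence was used here. Copies outside annotated genes were thus not seen. Countable starts assume that strand was used in the counting and that reads on several genes are set aside. A gene with fewer than 20 such starts got no value. Genes with at least 10 counts over both libraries were compared by the exact binomial test (scipy 1.17.1, statsmodels 0.14.6). edgeR 4.0.16 and DESeq2 1.42.0 gave other library sizes, and edgeR's exact test another test. Its quasi-likelihood test needs replicated groups and could not be run. Both tests were checked on simulated counts that held no variation between replicates beyond counting error. The check therefore does not cover differences between mice. The software was Python 3.11.15 with R 4.3.3.

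All mRNAs and rRNAs are named. Of the tRNAs those with the most counts were named, and mt-Ta was added after its values were seen. Of nuclear genes the 3 with the highest CPM in a list of 34, Polrmt, Tfam, Lrpprc, Slirp and the partner with the highest level per kb in each complex are named. A marker gene and a nuclear subunit gene of the lists are not reported here. The members and lists were chosen with earlier results of these data known.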

Additional observations from a re-analysis of the deposited data

How the results depend on the processing

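The mitochondrial share of 1.48% of counts on genes became 1.75% without the rRNA repeat genes in the total and 0.606% of uniquely aligned reads, and lay from 1.35 to 1.61% with a single replicate. The total of uniquely aligned reads also holds reads on no gene. Mitochondrial reads from the strand opposite to a gene could be among them, so 0.606% may be too low. Without mt-Co1, an alternative chosen after seeing the data, mRNAs took 77.6%, rRNAs 21.3% and tRNAs 1.09% of mitochondrial counts. With at least 10 counts required in each library the tRNA share was 0.768%. The ratio of mt-Nd6 to the heavy-strand mRNAs was 1.29 with the median of all 12, 0.660 with their mean, 0.408 and 0.359 per countable start on either strand and on its own, and 0.379 with the median of the 7 countable ones, and lay from 1.28 to 1.30 with a single replicate. The value of 0.379 differs from the first only in leaving out the genes near 0. The log2 ratio of the mitochondrial total was -0.33 with TMM sizes, -0.31 with DESeq2 size factors and -0.32 without mitochondrial and rRNA genes in the total. No mitochondrial gene passed the 2-fold rule when at least 100 counts were required, since mt-Ta was then not tested, and 12 had an adjusted p under 0.05 at any fold, whereas the count stayed at 1 under both other library sizes, a minimum of 1 count and edgeR's exact test. Over all genes the count of 242 became 55 with at least 100 counts, 60 in edgeR's exact test and 2596 at any fold. All 34 nuclear genes reached 0.5 CPM and 31 reached 5 CPM. The levels per kb of the 15 mRNAs and rRNAs stayed within 1 SD with TMM or DESeq2 sizes, and 10 of them moved further without mitochondrial and rRNA genes in the total. Of the 10 with enough countable starts, 4 moved further per start on their own strand and 6 per start on either strand. A mean of 2 values cannot leave 1 SD when either is dropped. No paired analysis was possible because the libraries form a single group. Genes at or under 3 counts cannot be told from 0 at this depth.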
